A study of Homo sapiens with 4 samples.

Results

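The genes described here are 36 named genes of 3 kinds: genes of hepatic and yolk sac secretion, transcription factors and a receptor of the endoderm, and genes of simple epithelia, together with the antisense transcript TTN-AS1. They were picked by name, with earlier results of these data known, from the 23615 gene symbols of the table, so their differences between the groups are given as a description and carry no test. By role they are 11 plasma protein genes, 8 apolipoprotein genes, 7 endoderm genes, 9 epithelial genes and 1 antisense transcript. TTN-AS1, which lies opposite the gene of the sarcomere protein titin, belongs to none of the 3 kinds.

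The study asked how cardiomyocytes from cardiac progenitor cells (CPCs) and from hemogenic endothelial cells (ECs) redirected to the heart differ in gene expression. RNA was sequenced from 4 libraries of unsorted cells on day 14, 2 biological replicates per group, all from RUES2, a human embryonic stem cell line. Every culture received 100 ng/ml activin A and then, on day 1, 5 ng/ml BMP4 with 1 µM CHIR-99021, which activates Wnt signaling (the A100/B5 condition), and insulin from day 7. The ECsXAV cultures were given 200 ng/ml VEGF, 5 ng/ml bFGF and 10 ng/ml BMP4 from day 2, and then 2 µM XAV-939, an inhibitor of Wnt/β-catenin signaling, from day 5. The CPC cultures received 1 µM XAV-939 from day 3, as the study's scheme draws it, and none of the endothelial factors. The cells were not purified, so each library holds every cell type of its culture, and in such bulk RNA fewer cells of a type and less RNA per cell cannot be told apart. The sample names of the groups begin with different prefixes, and an effect of the experiment cannot be told apart from that of the group.

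Hepatocytes and the visceral endoderm of the yolk sac secrete many of the same plasma proteins, among them alpha-fetoprotein, transthyretin and the apolipoproteins, which carry lipids in blood. Their genes are controlled by a shared set of transcription factors, the FOXA proteins, HNF1 and HNF4A, several of which act already in early endoderm. Simple epithelia are single layers of cells bound by cadherins and claudins and filled with the keratins KRT8, KRT18, KRT19 and KRT7, and they occur in endoderm, mesothelium, trophoblast and other tissues.

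The values are FPKM, fragments scaled to the length of the transcript and to all mapped fragments of the library, so that levels can be compared between genes. At the depth steps seen in weakly expressed genes, ECsXAV replicate 2 had 50.1% of the depth of ECsXAV replicate 1, and CPC replicates 1 and 2 had 86.9% and 79.8%. Differences are on the log2(FPKM + 1) scale as CPC minus ECsXAV, so a negative value is higher in ECsXAV, and the added 1 understates the difference of weakly expressed genes. Genes with a mean of at least 1 FPKM entered a limma fit over all genes, and a gene met the criterion where its fold change was over 2 and its adjusted p under 0.05. Summed over 8 cardiomyocyte genes (TNNT2, MYH6, MYL7, ACTN2, NPPA, TNNI1, MYL4 and NKX2-5), the level was 15595 and 14921 FPKM in ECsXAV and 13865 and 14688 FPKM in CPC. MYL7 was the largest part of this sum, and MYH6 and NPPA met the criterion in opposite directions, at 1.21 and -3.30.

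The members split by level. Of the 36, 18 reached 1 FPKM in at least 1 library and 18 stayed under 1 FPKM in all 4, the highest value of the latter being 0.931 FPKM. Both ECsXAV libraries stood above both CPC libraries for 25 members, both CPC libraries stood above for 2 (FOXA3 and ESRP1), 7 members overlapped and 2 (KRT8 and KRT18) could not be assessed. Over all 18493 genes with a value above 0 and none missing, 24.8% had both ECsXAV libraries above and 22.1% both CPC libraries above. Since the members were chosen with this contrast known, nothing is read from their count. Among the 18 members under 1 FPKM, 13 had both ECsXAV libraries above, beside 22.2% of the 5762 genes that were above 0 and under 1 FPKM in every library.

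Of the 36 members, 14 had a mean of at least 1 FPKM and entered the fit, and 22 did not. AFP, TTR and APOA2 met the criterion, each higher in ECsXAV, beside 3.14% of the 12398 genes tested in either direction, 1.94% higher in ECsXAV and 1.19% higher in CPC, and nothing is read from this count either. AFP, TTR and APOA2 entered the fit through ECsXAV alone, with CPC means of 0.161, 0.039 and 0.104 FPKM. With CPC means that low, a gene could pass the filter only by being higher in ECsXAV. The median difference of the 14 was -0.72, beside -0.01 over all genes tested. Without the filter, the median of the 36 was -0.28, beside -0.01 over all genes. Nothing is read from these medians, since the choice of members and the filter bear on them. Without CPC replicate 2, TTR and APOA2 did not meet the criterion, at -2.0 and -2.18, and KRT19 did, at -1.27. KRT19 met it without ECsXAV replicate 1 as well, at -1.11.

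**Figure D1:**
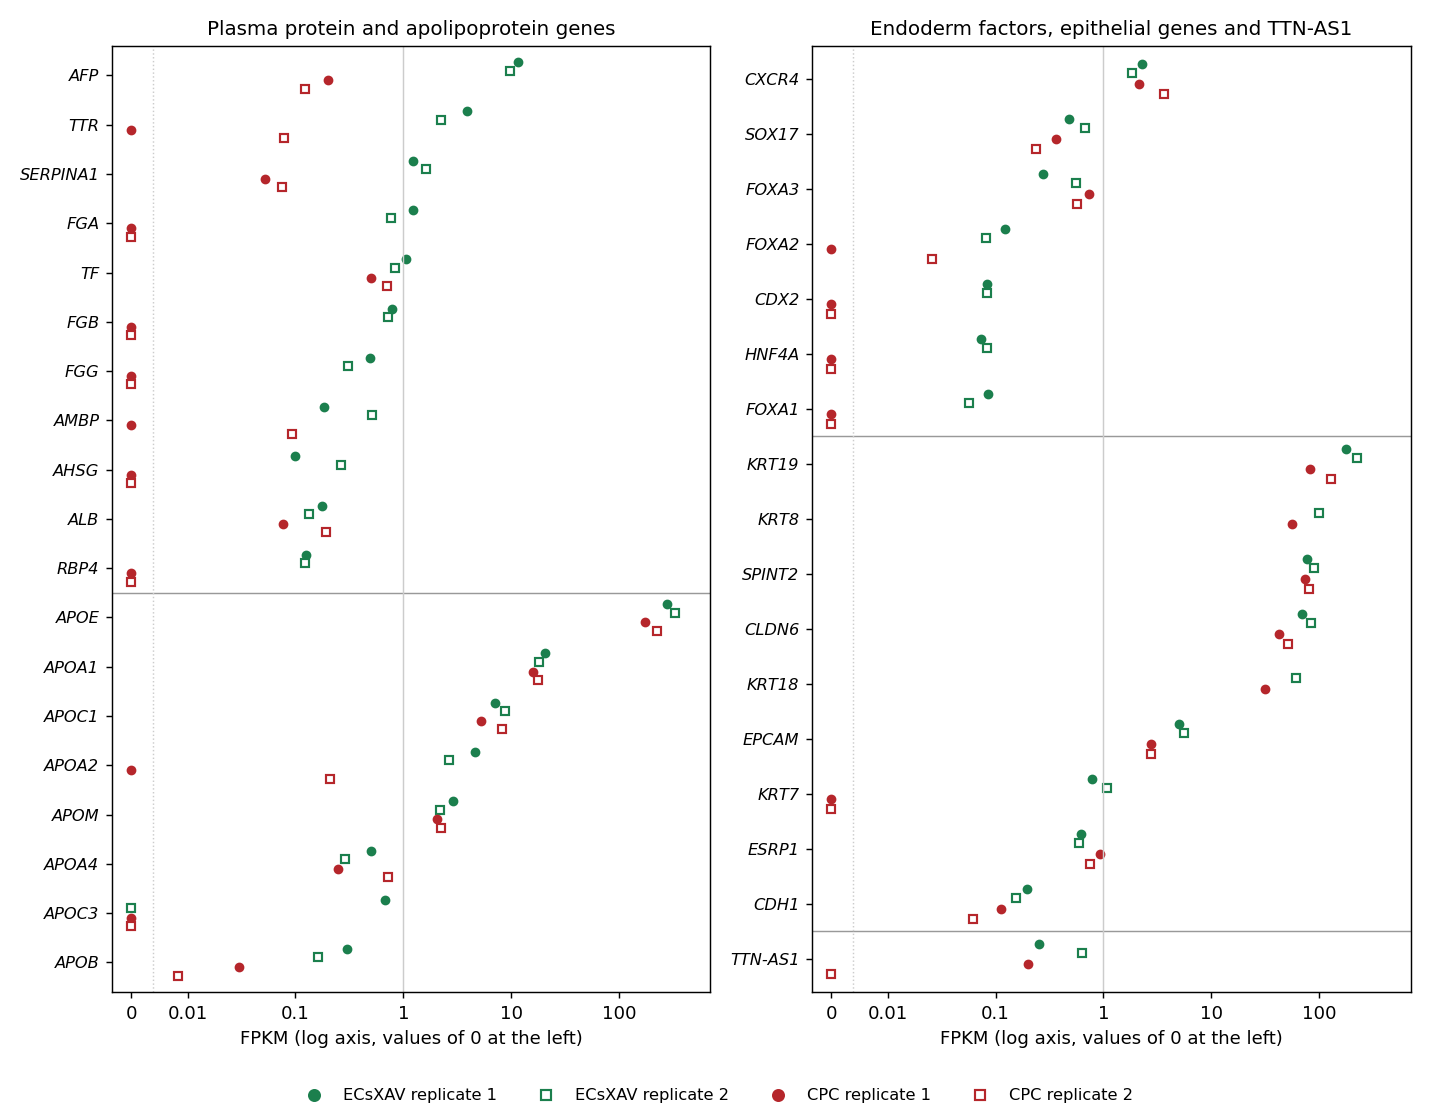
FPKM of each of the 36 members in each library on a log axis, with values of 0 drawn at the left edge and the line at 1 FPKM marked; green marks ECsXAV, red marks CPC, filled circles replicate 1 and open squares replicate 2, and KRT8 and KRT18 show 1 library per group. AFP stands at 11.4 and 9.70 FPKM in ECsXAV against 0.199 and 0.124 FPKM in CPC, while APOA1, APOC1, APOM and SPINT2 lie close together in all 4 libraries.

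The most abundant plasma protein gene in ECsXAV was AFP, the alpha-fetoprotein of yolk sac and fetal liver, on chromosome 4 of GRCh37 (the hg19 build) from 74296855 to 74321891. AFP had 11.4 and 9.70 FPKM in ECsXAV and 0.199 and 0.124 FPKM in CPC. Both ECsXAV libraries were high and both CPC libraries low, with a mean FPKM 65.5-fold higher in ECsXAV and a difference of -3.31 (standard error 0.12). In fragments, the smallest whole numbers that give these FPKM are 463 and 197 against 7 and 4, so AFP was low but present in both CPC libraries. ALB, the gene of serum albumin, starts upstream of AFP on the same strand and ends 9655 bases before it. ALB had 0.177 and 0.132 FPKM in ECsXAV and 0.0763 and 0.194 FPKM in CPC, from as few as 8, 3, 3 and 7 fragments. The groups overlapped for ALB, which was near 0 in every library. AFM, a further albumin family gene on the other side of AFP, is listed at 0 in all 4 libraries.

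TTR, which encodes the thyroxine carrier transthyretin, was next in level. TTR had 3.92 and 2.23 FPKM in ECsXAV, was listed at 0 in CPC replicate 1 and had 0.0779 FPKM in CPC replicate 2. These stand for fragments in the ratio of 63, 18, 0 and 1, and the difference was -1.94 (standard error 0.23). SERPINA1, which encodes alpha-1 antitrypsin, an inhibitor of neutrophil elastase, had 1.22 and 1.62 FPKM in ECsXAV against 0.0521 and 0.0756 FPKM in CPC. The libraries of SERPINA1 did not overlap, its mean was 22.3-fold higher in ECsXAV, and 1 of its 11 listed RefSeq transcripts carried nearly all of it, with 1.22 and 1.62 FPKM.

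The 3 fibrinogen chains lie together on chromosome 4, where FGB ends 10318 bases before FGA and FGA ends 13391 bases before FGG. FGA had 1.22 and 0.763 FPKM in the ECsXAV replicates, FGB 0.791 and 0.721 FPKM and FGG 0.487 and 0.309 FPKM. All 3 are listed at 0 in both CPC libraries. In GRCh37, FGB runs from 155484163 to 155493959, FGA from 155504278 to 155511894 and FGG from 155525286 to 155534119, FGB on the plus strand and the other two on the minus strand. The split of FGB between its 2 transcripts was not stable, since 1 transcript held 0.791 FPKM in ECsXAV replicate 1 and the other 0.721 FPKM in ECsXAV replicate 2, so only the gene value is used.

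TF, which encodes the iron carrier transferrin, differed less. TF had 1.05 and 0.836 FPKM in ECsXAV and 0.502 and 0.70 FPKM in CPC, a mean 1.57-fold higher in ECsXAV with the lowest ECsXAV library above the highest CPC library. AMBP, the precursor of alpha-1-microglobulin and bikunin, had 0.183 and 0.512 FPKM in ECsXAV and 0 and 0.092 FPKM in CPC. AHSG (fetuin-A) had 3 and 4 fragments and RBP4, the retinol carrier of plasma, 2 fragments and 1 fragment in the ECsXAV replicates, as the smallest whole numbers, and both genes are listed at 0 in the CPC libraries. At so few fragments, a difference in AHSG or RBP4 was not detectable at this depth. Summed over the 11 plasma protein genes, the level was 20.7 and 17.2 FPKM in ECsXAV and 0.83 and 1.26 FPKM in CPC, most of it from AFP in ECsXAV.

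The sequences before the starts of 4 of these genes are shown because AFP and ALB are neighbours that differed in level, and FGA and FGB are neighbours with like levels. The sequences come from RefSeq (GRCh38.p14, a later build than that of the FPKM, so positions are not to be mixed), which gave a promoter for 23 of the 36 members. Only promoter entries with a marked match in the printed bases are shown, so the presence of a match was set by that choice. Each line holds the 150 bases before the start in the direction of the gene, and capitals mark an exact match on either strand to GTTAAT, the core of the HNF1 half-site, and in AFP also to TATAAA, the TATA box.
AFP (chr4:73436071-73436220, plus strand): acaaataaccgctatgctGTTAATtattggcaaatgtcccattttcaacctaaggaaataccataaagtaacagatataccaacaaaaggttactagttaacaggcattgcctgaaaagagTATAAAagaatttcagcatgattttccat
ALB (chr4:73404137-73404286, plus strand): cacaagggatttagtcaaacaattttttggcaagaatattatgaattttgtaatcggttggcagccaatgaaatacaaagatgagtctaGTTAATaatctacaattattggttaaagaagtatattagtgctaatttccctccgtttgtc
FGA (chr4:154590743-154590892, minus strand): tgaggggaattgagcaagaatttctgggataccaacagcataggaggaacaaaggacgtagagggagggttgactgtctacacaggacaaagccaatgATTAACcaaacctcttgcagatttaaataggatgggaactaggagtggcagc
FGB (chr4:154562830-154562979, plus strand): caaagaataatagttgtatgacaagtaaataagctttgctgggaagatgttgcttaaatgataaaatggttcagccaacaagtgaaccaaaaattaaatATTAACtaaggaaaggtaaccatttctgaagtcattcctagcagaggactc

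The match begins 132 bases before the start in AFP, 61 in ALB, 52 in FGA and 51 in FGB. Whether these letters bear on the level of any of these genes was not tested. In windows of 250 bases before the start, GTTAAT was found on either strand in 7 of the 23 members with a promoter (AFP, ALB, CXCR4, FGA, FGB, HNF4A and SERPINA1), beside 7.5% of 27305 genes with a RefSeq promoter (6.23% of 35116 promoters, since a gene can have several). TGTTTAC or TGTTTGC, the letters of a FOXA site, were found in 8 (AHSG, AMBP, APOA2, CDX2, CXCR4, FGA, FOXA1 and SERPINA1), beside 7.41% of genes (6.09% of promoters). CAAAGTCCA, an HNF4 site, was found in AHSG alone, beside 0.403% of genes (0.325% of promoters), and TATAAA in 5 (AFP, CXCR4, FOXA3, RBP4 and TTN-AS1), beside 13% of genes (10.7% of promoters). FGG, the fibrinogen gene next to FGA, has a RefSeq promoter but no match to any of these motifs in its 250 bases. None of these motifs contains another, a match is no proof of a bound site, and the members were not chosen independently of what is known of these genes.

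The apolipoprotein genes ranged from APOE, the most abundant member, to genes under 1 FPKM, and 4 of the 8 overlapped between the groups. APOE, which directs lipoproteins to their receptors, had 275 and 328 FPKM in ECsXAV and 172 and 222 FPKM in CPC. Both ECsXAV libraries were above both CPC libraries, with a mean 1.53-fold higher and a difference of -0.62 (standard error 0.19). APOC1, 4853 bases beyond APOE on chromosome 19, had 7.13 and 8.67 FPKM in ECsXAV and 5.20 and 8.28 FPKM in CPC, and its groups overlapped. A pseudogene copy lies nearby, so how its fragments were placed is uncertain. The difference of APOC1 was -0.22 (standard error 0.24), and 0.07 without CPC replicate 1. APOC4 and APOC2 follow in the same cluster, and they are listed at 0 apart from 0.0986 FPKM of APOC2 in CPC replicate 1.

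APOA2, a protein of high-density lipoprotein, was the member of this class that met the criterion. APOA2 had 4.65 and 2.65 FPKM in ECsXAV, was listed at 0 in CPC replicate 1 and had 0.208 FPKM in CPC replicate 2. The difference was -2.05 (standard error 0.25), and the fragments stand in the ratio of 28, 8, 0 and 1. APOA2 lies alone on chromosome 1 of GRCh37, from 161192082 to 161193421 on the minus strand. Its promoter is shown beside those above because APOA2 differed and has the FOXA letters, here marked in capitals as GTAAACA, the reverse complement of TGTTTAC, 42 bases before the start (RefSeq, GRCh38.p14).
APOA2 (chr1:161223629-161223778, minus strand): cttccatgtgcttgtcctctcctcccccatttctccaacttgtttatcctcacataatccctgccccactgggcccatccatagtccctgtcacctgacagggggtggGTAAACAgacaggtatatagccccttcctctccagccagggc

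APOA1, the main protein of high-density lipoprotein, had 20.6 and 17.9 FPKM in ECsXAV and 15.9 and 17.8 FPKM in CPC. Its lowest ECsXAV library and highest CPC library nearly met, and the difference was -0.18 (standard error 0.12). APOA1 stands in a cluster on chromosome 11 with APOC3, 2678 bases away, and APOA4. APOC3 is listed at 0 in 3 libraries and at 0.681 FPKM in ECsXAV replicate 1, which can stand for 1 fragment. APOA4 had 0.503 and 0.287 FPKM in ECsXAV and 0.248 and 0.72 FPKM in CPC, so its groups overlapped, and APOA5 of the same cluster is listed at 0 in all 4 libraries. APOA1 was thus expressed at over 15 FPKM in every library while the other genes of its cluster were under 1 FPKM.

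APOM, a carrier of sphingosine 1-phosphate, had 2.90 and 2.19 FPKM in ECsXAV and 2.04 and 2.24 FPKM in CPC, with overlapping groups. APOM has 7 loci in the table, for the copies of the major histocompatibility region on chromosome 6. The highest value in each library is given, which can come from different loci. APOB, the protein of low-density lipoprotein and of the lipoproteins that yolk sac and liver secrete, had 0.299 and 0.162 FPKM in ECsXAV and 0.0299 and 0.00814 FPKM in CPC. Its groups did not overlap, its mean was 12.1-fold higher in ECsXAV, and its long transcript gave 92 and 25 against 8 and 2 fragments.

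**Figure D2:**
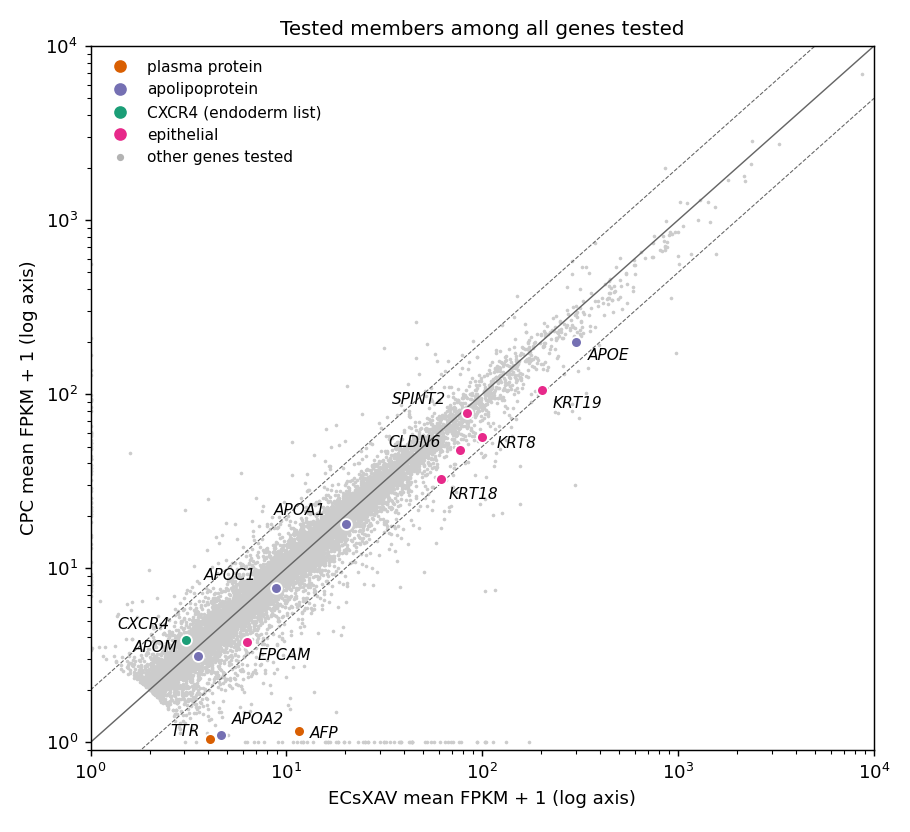
Mean FPKM + 1 of the ECsXAV libraries against that of the CPC libraries, both on log axes, for all 12398 genes tested (grey) and the 14 tested members (coloured by role); the solid line marks equal means and the dashed lines a 2-fold difference. AFP, TTR and APOA2 lie near the lower edge, with CPC means close to 0 FPKM, and APOE and the epithelial members lie between the solid line and the lower dashed line.

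The endoderm genes were weakly expressed. HNF4A, the nuclear receptor that hepatocytes require, had 0.0734 and 0.0836 FPKM in ECsXAV and is listed at 0 in both CPC libraries. FOXA1 had 0.0853 and 0.0567 FPKM in ECsXAV, from as few as 3 fragments and 1 fragment, and CDX2, a factor of hindgut and trophoblast, 0.0841 and 0.0839 FPKM, from as few as 2 fragments and 1 fragment. Both are listed at 0 in the CPC libraries. At such levels, and at the like level of HNF4A, a difference was not detectable. FOXA2, a pioneer factor of endoderm, had 0.123 and 0.0816 FPKM in ECsXAV and 0 and 0.0256 FPKM in CPC.

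FOXA3, the third FOXA gene and one of adult liver and gut, went the other way. It had 0.278 and 0.555 FPKM in ECsXAV and 0.728 and 0.57 FPKM in CPC, with 11, 11, 25 and 18 fragments. Both CPC libraries were above, although ECsXAV replicate 2 and CPC replicate 2 were close. SOX17, a factor of definitive endoderm that also acts in hemogenic endothelium, had 0.484 and 0.671 FPKM in ECsXAV and 0.363 and 0.237 FPKM in CPC, with 23, 16, 15 and 9 fragments. CXCR4, the receptor of the chemokine CXCL12, is used to sort definitive endoderm and is found on many mesodermal cells too. CXCR4 had 2.27 and 1.84 FPKM in ECsXAV and 2.12 and 3.61 FPKM in CPC, and its groups overlapped, with a difference of 0.32 (standard error 0.23). CXCR4 was the only member of the endoderm genes to reach 1 FPKM in these libraries, and the only tested member of the 14 with a positive difference.

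Of the endoderm genes, HNF4A, FOXA1, FOXA2 and CDX2 stayed under 0.2 FPKM in all 4 libraries, as did ALB. FOXA3 (0.278 to 0.728 FPKM) and SOX17 (0.237 to 0.671 FPKM) stayed under 1 FPKM, and CXCR4 exceeded it in all 4 libraries. Checked against its label, the list held secreted products that reached 1 FPKM in an ECsXAV library but in no CPC library (AFP, TTR, SERPINA1, FGA, TF and APOA2). APOA1, APOC1, APOE and APOM exceeded 1 FPKM in all 4 libraries, and AHSG, FGB, FGG, RBP4, AMBP, APOA4, APOB and APOC3 stayed under it. A hepatic, yolk sac or other source of the secreted products was not tested.

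Of the 9 epithelial genes, 6 (KRT19, KRT8, KRT18, CLDN6, SPINT2 and EPCAM) exceeded 1 FPKM in both groups, KRT7 is listed at 0 in both CPC libraries, and CDH1 and ESRP1 stayed under 1 FPKM. KRT19, a keratin of simple epithelia, had 178 and 223 FPKM in ECsXAV and 82.1 and 128 FPKM in CPC. Its groups did not overlap, its mean was 1.91-fold higher in ECsXAV, and its difference was -0.95 (standard error 0.26). KRT8 and KRT18, which pair in the same filaments and overlap at their ends on chromosome 12, are both listed at 0 in ECsXAV replicate 1 and in CPC replicate 2. A 0 beside at least 5 FPKM in the other replicate was treated as missing for every gene, which left 99.0 against 55.7 FPKM for KRT8 and 60.7 against 31.4 FPKM for KRT18, 1 library per group. Their differences of -0.82 and -0.93 thus rest on 1 library per group, and with the zeros kept they were -0.41 and -0.47. The next member outside this limit was APOC3, with 0 beside 0.681 FPKM, and 25 genes other than short RNA genes had a value missing by it. Both keratin genes have many processed pseudogenes, and how fragments that match several places were divided is not given for the FPKM, so these levels are uncertain.

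CLDN6, a tight junction protein of embryonic epithelia, had 68.6 and 83.5 FPKM in ECsXAV and 42.1 and 51.0 FPKM in CPC, a mean 1.64-fold higher in ECsXAV and a difference of -0.70 (standard error 0.16). EPCAM, the epithelial cell adhesion molecule, had 5.04 and 5.53 FPKM in ECsXAV and 2.74 and 2.76 FPKM in CPC, a mean 1.92-fold higher and a difference of -0.74 (standard error 0.10). Neither gene overlapped between the groups. KRT7, a keratin of ducts, mesothelium and trophoblast, had 0.783 and 1.08 FPKM in ECsXAV, from as few as 13 and 9 fragments, and is listed at 0 in both CPC libraries. SPINT2, an inhibitor of serine proteases at the cell surface, had 77.4 and 88.5 FPKM in ECsXAV and 73.9 and 79.6 FPKM in CPC. Its groups overlapped, and its difference was -0.11 (standard error 0.12).

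CDH1 and ESRP1, both genes of epithelial identity, were weak. CDH1, the gene of E-cadherin, had 0.196 and 0.156 FPKM in ECsXAV and 0.113 and 0.0614 FPKM in CPC, with 20, 8, 10 and 5 fragments. ESRP1, a splicing factor of epithelial cells, had 0.624 and 0.595 FPKM in ECsXAV and 0.931 and 0.745 FPKM in CPC, so that both CPC libraries were above. Of the 9 epithelial members, 5 thus had both ECsXAV libraries above, 1 both CPC libraries above, 1 overlapped and 2 could not be assessed. The median difference of the 6 tested was -0.78, with KRT8 and KRT18 at 1 library per group. In both groups replicate 2 was above replicate 1 for KRT19, CLDN6, EPCAM, SPINT2, APOE and APOC1.

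Markers of mesothelium and trophoblast, which carry simple keratins, and of other cell types are given beside these levels. Of 10 mesothelial genes, the sum was 28.6 and 30.3 FPKM in ECsXAV and 31.2 and 22.9 FPKM in CPC, mostly from LRRN4, and WT1, UPK3B and MSLN stayed under 0.2 FPKM in every library. In 5 of the 10 (WT1, UPK1B, TBX18, TCF21 and CALB2) both ECsXAV libraries were above, beside 24.8% of all genes. In 1 (ALDH1A2) both CPC libraries were. TBX18 had 1.49 and 1.49 FPKM in ECsXAV against 0.444 and 0.348 FPKM in CPC, and CALB2 0.773 and 1.10 FPKM against 0.266 and 0.193 FPKM. Of 10 trophoblast genes, 9 were in the table and their sum was 0.357 and 1.07 FPKM against 0.157 and 0.326 FPKM, with ELF5 and PSG1 listed at 0 throughout. The 9 pluripotency genes summed to 14.7 and 12.2 FPKM against 7.92 and 7.55 FPKM, mostly DNMT3B and TDGF1, with NANOG listed at 0 in all 4 libraries and POU5F1 above 0 in ECsXAV replicate 1 alone, at 0.0432 FPKM. Endothelial genes summed to 29.6 and 31.3 FPKM against 27.7 and 25.4 FPKM over 14 genes, macrophage genes to 0.395 to 0.714 FPKM over 11 and surface ectoderm genes to 0.238 to 0.411 FPKM over 6. Both ECsXAV libraries were above in 7 of the 14 endothelial genes (50%), and both CPC libraries in 1. Of these 14, 9 stayed under 1 FPKM in every library. Beside this count and those that follow, the shares over all genes were 24.8% and 22.1%. Among genes above 0 and under 1 FPKM in every library, they were 22.2% and 16.2%. Of the pluripotency genes above 0, ECsXAV was above in 3 of 8 and CPC in 0. Of the trophoblast genes above 0, ECsXAV was above in 2 of 7 and CPC in 0. Macrophage genes gave 0 and 1 of 7, and surface ectoderm genes 1 and 1 of 4. The part of these cell types in the levels of the members was not tested.

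TTN-AS1, the antisense transcript, had 0.252 and 0.631 FPKM in ECsXAV and 0.202 and 0 FPKM in CPC. In the GRCh37 annotation, 135 of its 181 exons overlap exons of TTN on the opposite strand of chromosome 2. TTN, which encodes titin, had 91.9 and 94.3 FPKM in ECsXAV and 98.3 and 54.6 FPKM in CPC, a difference of -0.34 (adjusted p = 0.598 from limma). The study states strand-specific counting for its read counts but does not say whether the FPKM used strand, so whether fragments of TTN entered the low level of TTN-AS1 was not tested.

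Outside the 36 members, 4 lists of genes of the same pathways were followed, 160 genes in all. They were chosen by pathway, with earlier results of these data known. Of 55 other proteins that the liver secretes, 35 were above 0 in some library and 7 had a mean of at least 1 FPKM. In 9 of the 35 (25.7%) both ECsXAV libraries were above, close to the 24.8% of all genes, and in 4 (11.4%) both CPC libraries were. F10, the gene of coagulation factor X, was the only 1 of the 7 past the criterion, beside the 3.14% of all genes. It had 2.44 and 2.50 FPKM in ECsXAV and 0.663 and 0.636 FPKM in CPC, a difference of -1.07 with a standard error of 0.08 (adjusted p = 0.0105 from limma). With both CPC libraries under 1 FPKM, F10 entered the fit through ECsXAV alone. The median of the 7 was -0.82, with 6 lower and 1 higher in CPC, beside a median of -0.01 over all genes. The filter admits genes such as F10 through ECsXAV alone, so nothing is read from this median. Without the filter, the median of the 35 was -0.02, with 23 lower and 12 higher in CPC, beside -0.01 over all genes.

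Of the other 6 secreted proteins tested, some are named here after their values were seen. LCAT, which esterifies cholesterol on high-density lipoprotein, had 7.76 and 8.41 FPKM in ECsXAV and 3.98 and 4.32 FPKM in CPC, a difference of -0.82 (adjusted p = 0.0343 from limma) that was under 2-fold. HAMP, the gene of the iron hormone hepcidin, had 6.23 and 16.4 FPKM against 0.694 and 2.77 FPKM, a difference of -2.15 (adjusted p = 0.156 from limma). VTN, the gene of vitronectin, had 2.69 and 1.96 FPKM against 0.423 and 0.959 FPKM, a difference of -0.98 (adjusted p = 0.0995 from limma). Both CPC libraries of VTN were under 1 FPKM, so VTN entered the fit through ECsXAV. The libraries of LCAT, HAMP and VTN did not overlap between the groups, but HAMP in particular varied within them. The count past the criterion was 2 without ECsXAV replicate 1, where HAMP joined F10 at -2.79, and 2 without ECsXAV replicate 2, where VTN joined it at -1.15.

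Among 36 genes of liver metabolism, 25 were above 0, 3 were tested and 0 met the criterion in limma. Of the 3, 1 had an unadjusted p under 0.05 in limma, beside 2597 of all 12398 genes tested. CPS1, the first enzyme of the urea cycle, had 12.2 and 9.58 FPKM in ECsXAV and 27.6 and 21.0 FPKM in CPC, a difference of 1.09, higher in CPC (adjusted p = 0.0676 from limma). Without ECsXAV replicate 1 CPS1 met the criterion at 1.24, and without CPC replicate 2 at 1.28. ASGR1, a subunit of the asialoglycoprotein receptor, and CYP2E1, a cytochrome P450, had differences of -0.33 and -0.28 (adjusted p = 0.475 and 0.339 from limma). NR0B2, a repressor of bile acid synthesis, was under the limit for the test, at 0.127 to 0.758 FPKM. Both ECsXAV libraries were above in 8 of the 25 genes above 0 (32%) and both CPC libraries in 4 (16%). Over all genes these shares were 24.8% and 22.1%.

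Among 23 other endoderm regulators, 21 were above 0, 2 were tested and 0 met the criterion in limma. Of the 2, 0 had an unadjusted p under 0.05 in limma, beside 2597 of all 12398 genes tested. PROX1, a factor of liver that also acts in heart and lymphatic endothelium, had 13.4 and 12.3 FPKM in ECsXAV and 13.2 and 9.53 FPKM in CPC, a difference of -0.18 (adjusted p = 0.635 from limma) that was 0.04 without CPC replicate 2. MIXL1, a factor of the primitive streak, had 1.36 and 1.81 FPKM against 2.30 and 4.21 FPKM, a difference of 0.69 (adjusted p = 0.248 from limma). CEBPA, at 0.687 to 0.868 FPKM, and OTX2, at 0.413 to 1.01 FPKM, were not tested. Both ECsXAV libraries were above in 7 of the 21 genes above 0 (33.3%) and both CPC libraries in 3 (14.3%). Over all genes these shares were 24.8% and 22.1%.

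Of 46 other genes of simple epithelia, 42 were above 0 and 13 were tested, and 0 met the criterion in limma. Of the 13, 4 had an unadjusted p under 0.05 in limma, beside 2597 of all 12398 genes tested. The median difference of the 13 was 0.14, with 6 lower and 7 higher in CPC. It was -0.01 without CPC replicate 2, with 7 lower and 6 higher. The 6 tested epithelial members, which were chosen with their values known, had a median of -0.78. Among them, KRT8 and KRT18 rest on 1 library per group and were -0.41 and -0.47 with their zeros kept. CDH3, the gene of P-cadherin, had 62.3 and 59.0 FPKM in ECsXAV and 60.1 and 57.7 FPKM in CPC, a difference of -0.04 (adjusted p = 0.848 from limma). LLGL2, a polarity protein, had 10.3 and 13.2 FPKM against 7.71 and 8.54 FPKM, a difference of -0.48 (adjusted p = 0.191 from limma). LSR, of tricellular junctions, and PRSS8, a protease that SPINT2 can inhibit, had differences of 0.14 and 0.18 (adjusted p = 0.575 and 0.476 from limma). Both ECsXAV libraries were above in 15 of the 42 (35.7%) and both CPC libraries in 10 (23.8%). Over all genes these shares were 24.8% and 22.1%.

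**Figure D3:**
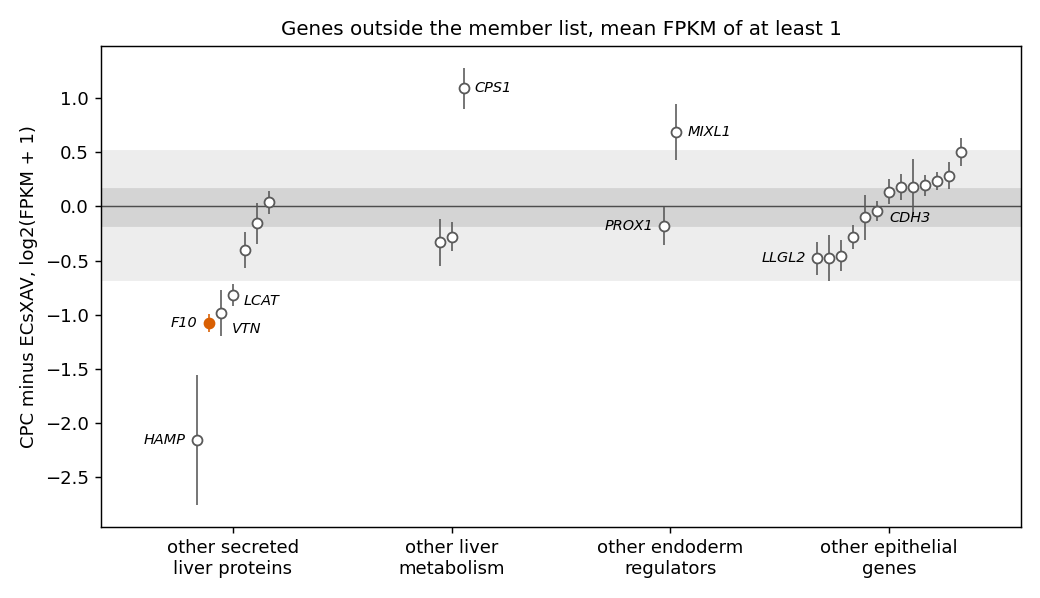
Difference in log2(FPKM + 1), CPC minus ECsXAV, of the tested genes of the 4 lists outside the members, each point a gene with its standard error; the orange filled point met the criterion, and the dark and light bands span the 25th to 75th and the 5th to 95th percentiles of all genes tested (-0.18 to 0.16 and -0.68 to 0.51). F10 at -1.07 is the 1 filled point, CPS1 at 1.09 lies on the opposite side, and the epithelial genes lie within the light band.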

How the data were processed

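Poly-A RNA of 4 libraries was used. The authors deposited FPKM per gene and per RefSeq transcript, which they computed with Cufflinks version 2.1.1 and UCSC annotation on hg19. The labels also name TopHat 1.3.3. Strand-specific counting without multiply aligned reads is stated for the authors' separate counts, and for the FPKM neither point is given in the sources used here. The authors' test on counts was not repeated, since FPKM need a test on the log scale. Where a symbol had several loci (554 symbols), the highest locus in each library was used, and values under 1e-06 were taken as 0.

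On log2(FPKM + 1), differences were fitted without a block in R 4.3.3 (limma 3.58.1) for genes averaging at least 1 FPKM, with a trend in the variance and Benjamini-Hochberg adjustment over all genes tested. A 0 beside at least 5 FPKM in the same group was missing. With 2 libraries against 2, every p depends on a variance shared between genes by limma. The steps were tested on simulated data. Relative depth and whole fragments came from the steps between low FPKM, for which total depth was not needed. Gene positions came from GENCODE release 44 lifted to GRCh37, promoters from RefSeq, and figures from Python 3.11.15 with matplotlib 3.10.9.

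The members and lists were chosen with earlier results of these data known. Members that reached 1 FPKM were to be named with every value. Of the 4 other lists, genes past the criterion were to be named, or, with none, the 4 with the highest mean. The alternatives were a pseudocount of 0.1, no filter or one at 5 FPKM, no trend, a block on the replicate number, scaling by quantiles or by the median of ratios, zeros kept, short RNA genes left out, summed loci, the transcript table, and each replicate left out in turn.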

Additional observations from a re-analysis of the deposited data

How the results depend on the processing

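AFP and F10 met the criterion under every alternative in which they were tested, and F10 was below the filter at a mean of 5 FPKM. At that filter 247 genes met it in place of 389 (143 higher in ECsXAV and 104 higher in CPC), 1 member in place of 3 and 0 of the secreted proteins in place of 1, since fewer genes were tested. Without a filter, TTR and APOA2 did not meet it, at -1.94 and -2.05, for a cause that was not tested. SERPINA1, which the filter had kept out of the main fit, met it at -1.18. Leaving out short RNA genes gave 2 secreted proteins (F10 and HAMP) and 1 metabolism gene (CPS1). The replicates share only a number, so the block was an alternative: with it, 518 genes met the criterion, with 3 members, 2 secreted proteins (F10 and HAMP) and 1 metabolism gene (CPS1), and KRT8 and KRT18 could not be fitted (nor without ECsXAV replicate 2 or CPC replicate 1). Same-numbered libraries deviated from their group means with a Pearson correlation across genes of 0.254 (Spearman 0.373, 12177 genes). Leaving out each replicate in turn gave 411 to 488 genes, 2 to 4 members, 1 to 2 secreted proteins and 0 to 1 metabolism genes, with the lone library assumed to vary like the others. Of the 24 genes followed singly (the tested members and the genes named by rule), the sign turned for APOC1 (-0.51 to 0.07, positive without CPC replicate 1) and PROX1 (-0.39 to 0.04, positive without CPC replicate 2). Of the fold changes of these 24 genes under the alternatives, 333 kept direction and side of the criterion, 6 came to meet it, 4 ceased to and 2 turned sign, and HAMP, VTN and SERPINA1, named above or in the report, are not among them. In the lists, other tested genes turned sign too: the secreted proteins were 5 lower and 2 higher without CPC replicate 1 and 7 lower without CPC replicate 2, and LRRN4, the 1 mesothelial gene tested, turned to 0.17 without CPC replicate 2. A pseudocount of 0.1 gave 479 genes and larger differences, -5.36 for AFP, -4.36 for APOA2, -4.52 for TTR and -1.78 for F10, since it adds less to low FPKM. Members at 0 to 4 fragments are limited by depth, most of all in ECsXAV replicate 2.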

Other observations

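Some genes of the 4 lists outside the members were below the filter in the mean but stood apart by library, and they were singled out after their values were seen. MARVELD3, a tight junction protein, had 1.09 and 1.17 FPKM in ECsXAV and 0.167 and 0.334 FPKM in CPC. S100A14 had 1.21 and 1.05 FPKM against 0.303 and 0.264 FPKM, and EPN3 1.14 and 0.992 FPKM against 0.265 and 0.456 FPKM. DPP4, a peptidase of gut and yolk sac epithelia, had 0.513 and 0.366 FPKM against 0.0281 and 0 FPKM. LRP2, the endocytic receptor megalin, had 0.631 and 0.79 FPKM against 0.231 and 0.266 FPKM. SERPIND1, the gene of heparin cofactor II, stood the other way, with 0.425 and 0.536 FPKM in ECsXAV and 1.24 and 1.07 FPKM in CPC, as did RAB25, with 0.46 and 0.612 FPKM against 1.18 and 0.961 FPKM. None of these was tested.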
